A study of Mus musculus with 8 samples.

Results

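This account describes the axon guidance ligands and receptors of the mouse striatum, measured in R6/2 mice and in wild-type (WT) controls. The members are all non-control array probes whose gene name begins with Sema, Plxn, Epha, Ephb, Efna, Efnb, Robo, Slit followed by a digit, Slitrk, Ntn, Unc5 or Nrp followed by a digit, or is Dcc, Neo1 or Draxin. They comprise 80 of the 34844 gene names among the array's non-control probes, with 114 of 55681 probes, and 0 of these probes carried the name Draxin. Unc50 and Unc5cl were taken in by the letters of their names only and are not netrin receptors. Testing required a signal well above local background on 4 or more of the 8 arrays, which 109 of the 114 member probes had, for 77 of the 80 genes. Ntn5, Unc5cl and Unc5d had 0 tested probes, and 1 probe each of Ntn1 and Sema4f was also too dim.

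The study hybridised 4 striatal RNA samples of male R6/2 mice and 4 of male WT mice, all at 4 weeks of age, to 1-colour arrays with 1 array per sample. R6/2 is a transgenic line in which a human huntingtin promoter drives exon 1 of the human gene with a lengthened CAG repeat, and the mouse's own huntingtin gene is left in place. The labels number the samples as replicates without stating that each came from a different animal, so the p-values measure the spread between these samples. All 8 arrays shared 1 slide, with every R6/2 array in slide row 2 and every WT array in slide row 1, so that slide row and genotype cannot be told apart.

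The share of probes well above background was 61.5% to 67.7% per array, and 0 spots were saturated. Of the markers of striatal projection neurons, all 9 were detected, which goes with the tissue label but does not show that the dissection held striatum only. The summed signal of these 9 markers, as a multiple of the array's 75th percentile signal, was 297 to 406 in R6/2 and 591 to 685 in WT. All 9 were lower in R6/2, and 4 of the 9 passed the test. These were Ppp1r1b, Adora2a, Penk and Rgs9, with limma adjusted p-values of 0.0291, 0.0499, 0.0102 and 0.0465. All 5 neuroblast and progenitor markers were higher in R6/2, with a summed signal of 4.31 to 5.69 in R6/2 and 3.64 to 3.94 in WT. Of the 5, 2 passed the test, Dcx (limma adjusted p = 0.0489) and Sox11 (0.0104). All 6 interneuron markers were lower in R6/2, with sums of 49.3 to 55.4 in R6/2 and 59.3 to 78.3 in WT, and 0 of the 6 passed the test. All 5 cortical glutamatergic markers were detected and lower in R6/2, with sums of 5.37 to 12.2 in R6/2 and 8.05 to 13.5 in WT. All 4 choroid plexus markers were detected, with sums of 45.3 to 182 in R6/2 and 54.3 to 238 in WT. In both sets 0 markers passed the test. The part of these marker differences in the member differences below was not tested. In such bulk tissue, fewer cells of a type and less RNA per cell cannot be told apart.

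Growing axons steer by surface receptors that read secreted or membrane-bound ligands: Slits act through Robo receptors, semaphorins through plexins and neuropilins, netrins through Dcc, neogenin and Unc5 receptors, and ephrins through Eph receptor kinases. Most of these proteins stay on in the young and adult brain, where they bear on synapse formation and pruning. In the striatum, Sema3e and its receptor Plxnd1 are known for setting which thalamic inputs reach the projection neurons of the direct pathway. Slitrk proteins are related to Slits by their leucine-rich repeats but work as synaptic adhesion molecules.

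The probes are oligonucleotides of 60 bases, and 30 bases of each probe that the results turn on are printed here, with positions on mouse build mm9 from the array files. Whether a position is exonic, intronic or untranslated was not analysed here. The first set shows bases 1 to 30 of both probes of Robo1 and of Robo3. The brightest probe of each gene was called, and the further probe was not. The Robo1 probe at chr16:73046190-73046249 and its further probe at chr16:72956710-72956769 lie on the plus strand 89.5 kb apart. The Robo3 probe at chr9:37224357-37224416 and its further probe at chr9:37224780-37224839 lie on the minus strand 0.423 kb apart.
Robo1, brightest: cagttctaagggaacaatccacgtgattaa
Robo1, further: caaagagttaaaggtaatgggtttgctaac
Robo3, brightest: tctaccgctggtagcaattcttctaggggt
Robo3, further: gattcatgcatctggtcaacattgaaattg

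The second set shows member probes that hold a tandem repeat of the bases T and G, printed in capitals. They are shown because a repeat of this kind occurs in many transcripts. The probe of Sema4c lies at chr1:36605998-36606057, the repeat probe of Sema6d at chr2:124491609-124491668, the repeat probe of Epha5 at chr5:84487348-84487407 and the probe of Ephb3 at chr16:21223165-21223224.
Sema4c, bases 3 to 32: TGTGTGTGTGTGTGTGTGTGTGTtgtaact
Sema6d, bases 31 to 60: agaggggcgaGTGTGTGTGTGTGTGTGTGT
Epha5, bases 31 to 60: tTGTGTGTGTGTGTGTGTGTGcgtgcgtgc
Ephb3, bases 28 to 57: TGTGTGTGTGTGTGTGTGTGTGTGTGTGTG

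Values below are scaled log2 signals, the log2 of an array's processed signal over that array's 75th percentile. A difference is R6/2 minus WT on this log2 scale with its standard error (SE, n = 4 arrays per genotype), and a probe was called when its limma p, adjusted by Benjamini-Hochberg over all 35121 tested probes, was under 0.05. Robo1 rose and Robo3 fell in R6/2 striatum, and these were the 2 called probes among the 109. That is 1.83% of the member probes, against 1.51% of all tested probes. In the direction higher in R6/2, 1 of 109 member probes was called (0.917%), against 0.367% of all tested probes, and in the direction lower in R6/2, 1 of 109 was called, against 1.14%. With the replicate number as a block, 0 of the 109 were called, against 0.806% of all tested probes. After normexp background correction 4 of the 109 were called (2.79% of all tested probes), 1 higher (against 0.774%) and 3 lower (against 2.02%). At an unadjusted p under 0.05 there were 23 member probes (21.1%), against 17% of all tested probes.

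The 4 R6/2 arrays lay wholly to 1 side of the 4 WT arrays for 11 member probes, 10.1% of the 109, against 12.4% of all tested probes. The 3 with R6/2 above WT were probes of Robo1, Efnb2 and Epha6, against 6.19% of all tested probes in that direction. The 8 with R6/2 below WT were both probes of Robo3, both of Plxnd1 and 1 each of Sema7a, Sema4a, Sema5b and Sema3f, against 6.19% of all tested probes. By the brightest tested probe of each gene, 34 member genes were higher and 43 lower in R6/2, with a median difference of -0.01. Over all 24054 tested gene names, 12434 were higher and 11620 lower, with a median of 0.01. Among the 36 ligand genes the median was -0.01, with 15 higher and 21 lower, and among the 34 receptor genes it was -0.07, with 12 higher and 22 lower.

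**Figure D1:**
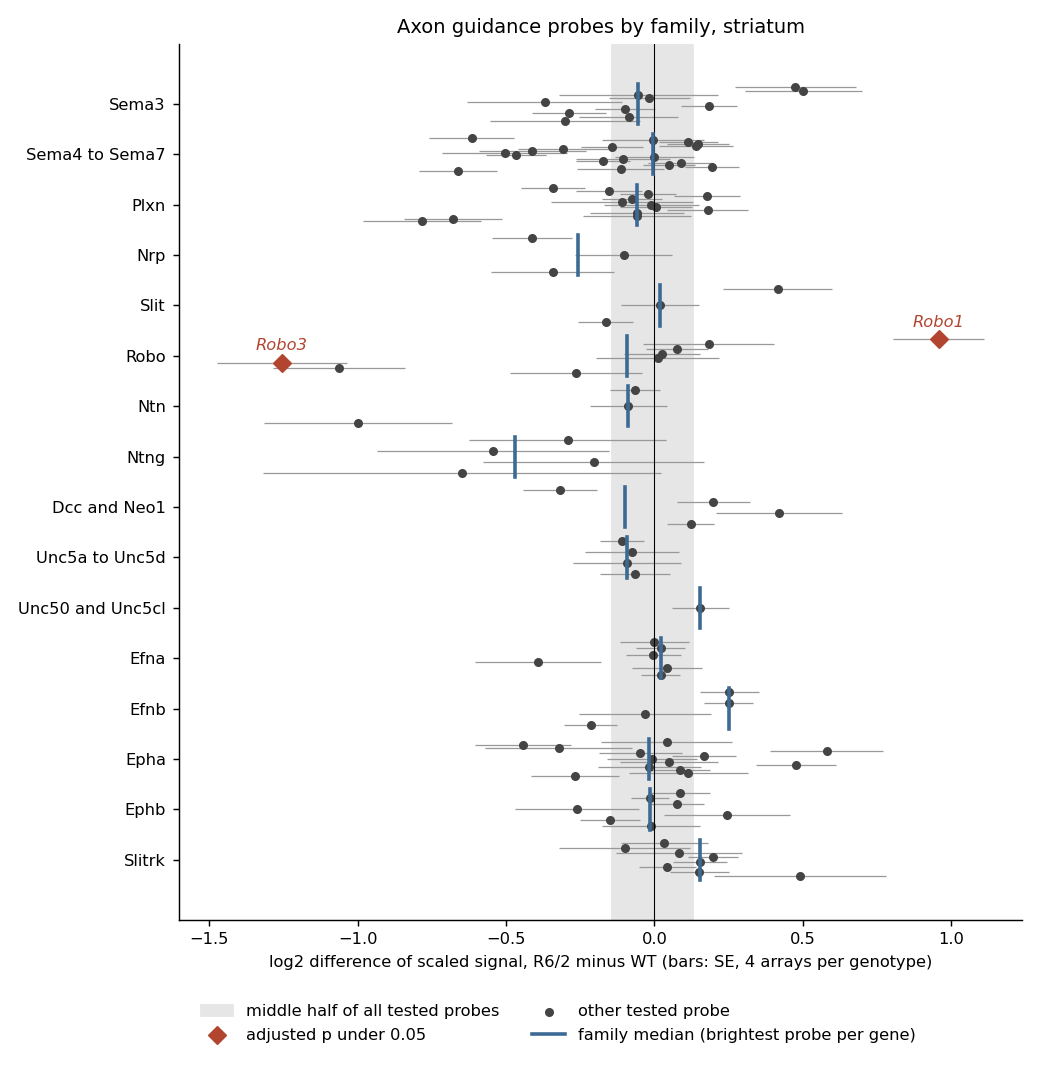
Log2 difference in scaled signal, R6/2 minus WT, for each of the 109 tested member probes (points, bars are SE, 4 arrays per genotype), grouped by family, with the median over each family's genes as a vertical line. The called probes of Robo1 at 0.96 and Robo3 at -1.26 lie far outside the grey band from -0.14 to 0.13 that holds the middle of all tested probes, while most family medians lie inside it.

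Of the Slits, the secreted ligands that repel axons through Robo receptors, 0 of 3 genes passed the test. Slit1 had 1.56, 1.75, 1.31 and 2.13 on the R6/2 arrays and 1.09, 1.56, 1.32 and 1.11 on the WT arrays. The groups overlapped through R6/2 replicate 3, and R6/2 replicate 1 lay only just above the highest WT array, replicate 2. Its difference was 0.42 ± 0.18 (limma adjusted p = 0.300), that of Slit3 was -0.16 ± 0.09 (adjusted p = 0.414) and that of Slit2 was 0.02 ± 0.13 (adjusted p = 0.954).

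Robo1, the Slit receptor found on many forebrain axons and migrating neurons, had 1.19, 1.57, 1.55 and 1.06 on the R6/2 arrays and 0.31, 0.23, 0.70 and 0.30 on the WT arrays. Every R6/2 array was above every WT array, and WT replicate 3 stood above the other WT arrays. The mean was 1.34 ± 0.26 in R6/2 and 0.38 ± 0.21 in WT (SD, n = 4 each), a 1.94-fold rise with a log2 difference of 0.96 ± 0.15 (limma adjusted p = 0.0301). With the replicate number as a block the adjusted p was 0.051, so that the call was lost. It was also lost without any of R6/2 replicates 1, 2 and 3 or WT replicates 1, 2 and 4, with adjusted p-values up to 0.094, and kept without R6/2 replicate 4 (adjusted p = 0.0448) or WT replicate 3 (adjusted p = 0.0288), while the difference ranged over 0.88 to 1.06. The summed signal of neuroblast markers was higher on every R6/2 array than on any WT array, as given above, and its part in the Robo1 result was not tested.

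The further probe of Robo1, the one 89.5 kb away on the chromosome, had -4.36, -4.23, -3.98 and -4.39 on the R6/2 arrays and -4.42, -4.99, -4.43 and -3.85 on the WT arrays, and was well above background on 4 R6/2 and 3 WT arrays. The groups overlapped, WT replicate 4 being the highest and WT replicate 2 the lowest of the 8. The difference was 0.18 ± 0.22 (limma adjusted p = 0.721), and it went to -0.004 without WT replicate 2. The gap between the probes' differences, further minus brightest, was -0.78 ± 0.23 on the log2 scale, with an unadjusted limma p of 0.0103 and an adjusted p of 0.334 over 11067 probe pairs, so that the disagreement did not pass the test.

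Robo3, a divergent Robo family member best known for letting commissural axons cross the midline of the hindbrain and spinal cord, had -0.50, 0.08, 0.21 and -0.64 on the R6/2 arrays and 0.66, 1.19, 1.13 and 1.19 on the WT arrays. Every R6/2 array was below every WT array, and WT replicate 1 stood below the other WT arrays. The mean was -0.22 ± 0.42 in R6/2 and 1.04 ± 0.26 in WT (SD, n = 4 each), a 2.39-fold fall with a log2 difference of -1.26 ± 0.22 (limma adjusted p = 0.0409). With the replicate number as a block the adjusted p was 0.0579, and without each of the 8 arrays in turn it was 0.0588 to 0.11, with differences of -1.40 to -1.11, so that the call was lost in all 9 of these fits.

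The further probe of Robo3 had -4.05, -3.51, -3.13 and -4.04 on the R6/2 arrays and -2.96, -2.50, -2.54 and -2.48 on the WT arrays. Here too every R6/2 array was below every WT array, with WT replicate 1 the lowest of its genotype. The difference was -1.06 ± 0.22 (limma adjusted p = 0.063), within 0.19 ± 0.07 of that of the brightest probe. After normexp background correction it was -0.49 (adjusted p = 0.0504), while the brightest probe gave -1.15 (adjusted p = 0.0158).

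Robo2 and Robo4 did not pass the test. The 3 probes of Robo2, the partner of Robo1 in the response to Slits, had differences between 0.01 and 0.08. Robo4, an endothelial member of the family whose probe lies on the opposite strand 2.81 kb from the nearest Robo3 probe, had a difference of -0.26 ± 0.22 (limma adjusted p = 0.599), and its R6/2 and WT arrays overlapped. The endothelial and mural markers, all 5 of them detected, summed to 16 to 18.7 in R6/2 and 16.2 to 22.9 in WT.

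**Figure D2:**
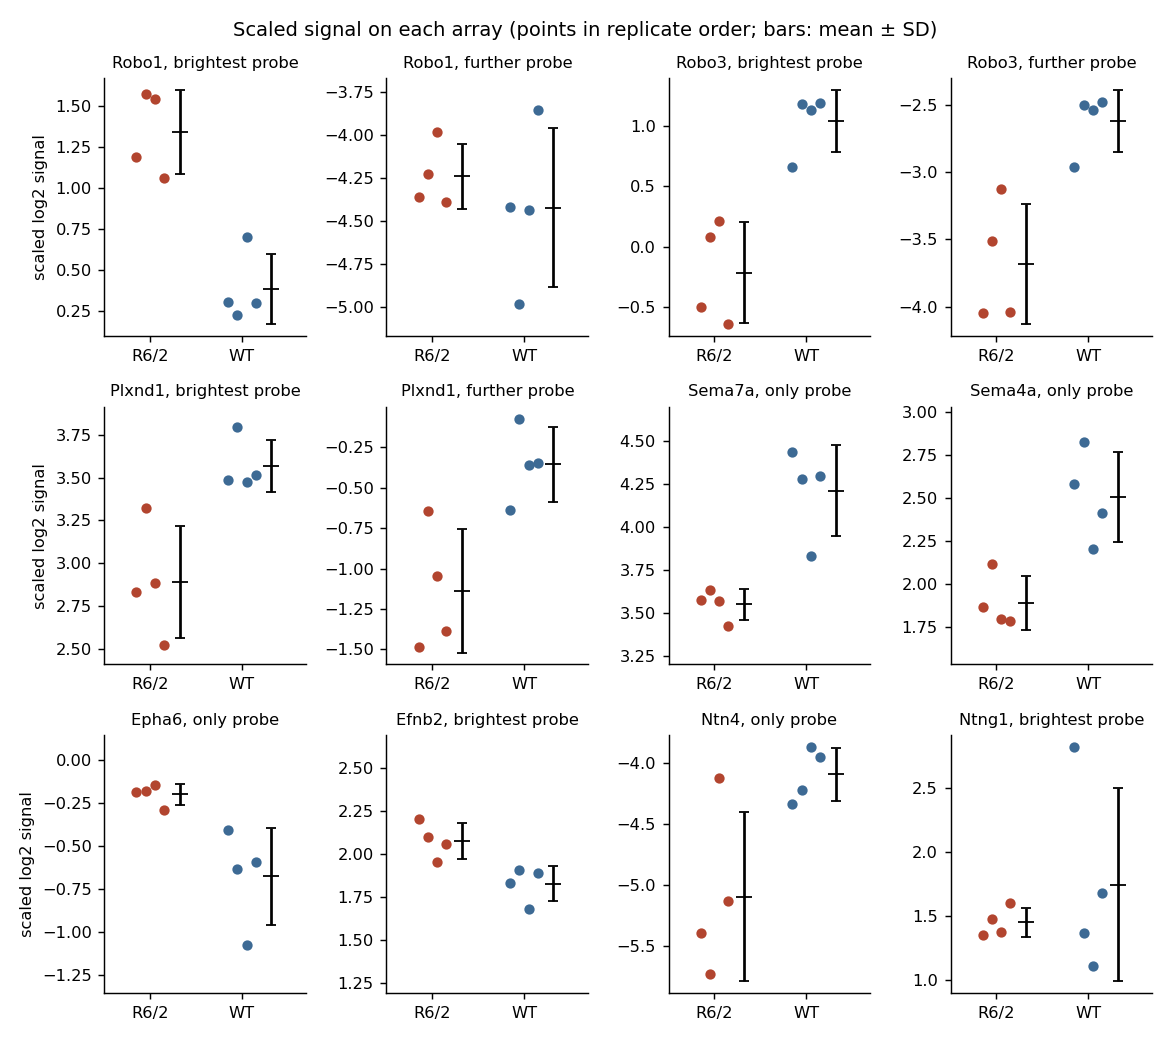
Scaled log2 signal on each array for 12 member probes, R6/2 at the left and WT at the right of each panel, with each genotype's mean and SD as a bar beside the points; each panel has its own axis. The genotypes do not overlap for the brightest probe of Robo1 or for either probe of Robo3 or Plxnd1, while the further probe of Robo1 overlaps.

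The class 3 semaphorins, secreted ligands that mostly act through neuropilins and A-type plexins, had 0 of 7 genes called, with 2 higher, 5 lower and a median difference of -0.05. Both probes of Sema3a, the class's prototype repellent, pointed the same way. Its probe of smallest p had -2.93, -2.78, -3.36 and -2.77 on the R6/2 arrays and -3.55, -2.97, -3.75 and -3.58 on the WT arrays. The groups overlapped through R6/2 replicate 3 and WT replicate 2, and the difference was 0.50 ± 0.20 (limma adjusted p = 0.246), beside 0.48 ± 0.20 for the other probe. Sema3f, which signals through Nrp2, had a difference of -0.29 ± 0.12 (adjusted p = 0.288), with every R6/2 array below every WT array. Sema3e, the ligand of Plxnd1, had a difference of -0.10 ± 0.10 (adjusted p = 0.669).

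The membrane-bound and class 5 to 7 semaphorins, grouped as Sema4 to Sema7, had 0 of 13 genes called, with 5 higher and 8 lower, and a median of -0.01 that moved to -0.11 over all 18 of their tested probes. The lowest differences were those of Sema7a, Sema4a and Sema5b. Sema7a, a lipid-anchored semaphorin that binds Plxnc1 and integrins, had 3.58, 3.63, 3.56 and 3.42 on the R6/2 arrays and 4.44, 4.28, 3.83 and 4.30 on the WT arrays. Every R6/2 array was below every WT array, of which WT replicate 3 was the lowest. The mean was 3.55 ± 0.09 in R6/2 and 4.21 ± 0.26 in WT (SD, n = 4 each), a difference of -0.66 ± 0.13 (limma adjusted p = 0.0558). The probe passed the threshold without WT replicate 3 (difference -0.79, adjusted p = 0.0186), after normexp correction (adjusted p = 0.0327) and after quantile normalization (adjusted p = 0.037). It also passed with array weights (0.0158) and among probes well above background on all 8 arrays (0.0429). It did not pass with the replicate block (0.0789), with no filter on dim probes (0.136) or by the methods' t-test (0.0969). With any other array left out the adjusted p was 0.109 to 0.144.

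Sema4a, a transmembrane semaphorin, had 1.87, 2.12, 1.79 and 1.78 on the R6/2 arrays and 2.58, 2.83, 2.21 and 2.41 on the WT arrays. The R6/2 arrays were all below the WT arrays, by the narrowest gap between R6/2 replicate 2 and WT replicate 3. The difference was -0.62 ± 0.14 (limma adjusted p = 0.0785). Sema5b, a transmembrane semaphorin with thrombospondin repeats, had 3 probes with differences of -0.41, -0.47 and -0.50, of which the smallest adjusted p was 0.0656. For that probe the R6/2 arrays had -2.02, -2.08, -1.86 and -2.04 and the WT arrays -1.72, -1.63, -1.39 and -1.40, with no overlap, and after normexp correction it passed the threshold (adjusted p = 0.0421). Sema5a, its closest relative, had a difference of -0.31 ± 0.15 (adjusted p = 0.352). The highest difference of the group was that of the repeat probe of Sema6d, 0.19 ± 0.09 (adjusted p = 0.331), whereas the other Sema6d probe, which holds no such repeat, had -0.11 ± 0.15 (adjusted p = 0.743).

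Of the plexins, the semaphorin receptors, 0 of 9 genes were called, with 3 higher, 6 lower and a median of -0.06. Plxnd1, the receptor of Sema3e, had 2.83, 3.32, 2.88 and 2.53 on the R6/2 arrays and 3.49, 3.80, 3.48 and 3.51 on the WT arrays by its brightest probe. Every R6/2 array was below every WT array, and R6/2 replicate 2 and WT replicate 2 were each the highest of their genotype. The difference was -0.68 ± 0.16 (limma adjusted p = 0.0892). The further probe, 0.486 kb away, had -1.48, -0.64, -1.04 and -1.39 on the R6/2 arrays and -0.64, -0.07, -0.36 and -0.35 on the WT arrays, again with no overlap and with replicate 2 highest in both genotypes, and its difference was -0.78 ± 0.20 (adjusted p = 0.0989). With the replicate number as a block these adjusted p-values were 0.0617 and 0.0514. The projection neuron markers, lower in R6/2 as given above, moved in the same direction, and their part in the Plxnd1 values was not tested.

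Plxna1, a coreceptor of neuropilins, had a difference of -0.34 ± 0.11 (limma adjusted p = 0.163) with overlapping groups. Of the 3 plexin genes on the higher side, Plxna3 at 0.18 ± 0.11 and Plxnb3 at 0.18 ± 0.14 had adjusted p-values of 0.464 and 0.553, and Plxnb2 had 0.005 ± 0.121 (adjusted p = 0.988). Plxnc1, the receptor of Sema7a, had -0.06 by each of its 2 probes.

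Both neuropilin genes, the ligand-binding partners of plexins for class 3 semaphorins, were lower in R6/2 without passing the test. Nrp1 had -2.46, -2.56, -2.63 and -2.73 on the R6/2 arrays and -2.10, -1.997, -2.57 and -2.07 on the WT arrays. Only WT replicate 3 lay among the R6/2 arrays. The difference was -0.41 ± 0.13 (limma adjusted p = 0.172), and without WT replicate 3, the overlapping array, it was -0.54 (adjusted p = 0.0373). With any other array left out the adjusted p was 0.22 to 0.322. After normexp correction the difference was -0.24 (adjusted p = 0.156). Nrp2 had -0.10 ± 0.16 and -0.34 ± 0.21 by its 2 probes.

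Among the netrins, secreted laminin-related ligands, 0 of 3 tested genes were called and all 3 were lower in R6/2, with a median of -0.09. Ntn4 had -5.40, -5.73, -4.13 and -5.13 on the R6/2 arrays and -4.34, -4.22, -3.87 and -3.96 on the WT arrays. It was well above background on 1 R6/2 array, replicate 3, and on all 4 WT arrays, and that R6/2 array lay among the WT arrays. The difference was -0.999 ± 0.316 (limma adjusted p = 0.163). Without R6/2 replicate 3 it was -1.32 (adjusted p = 0.0463), but no R6/2 array left in that fit was well above background. Its size and p therefore rest on background values in R6/2. With any other array left out the adjusted p was 0.211 to 0.315. After normexp correction, which pulls dim probes together, the difference was -0.26 (adjusted p = 0.172). Ntn1, the classical guidance netrin, had -0.07 ± 0.08.

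The netrin-G proteins are membrane-anchored relatives of netrins that bind synaptic partners on other neurons, and Ntng1 is known as a product of thalamic neurons. All 4 tested probes of the 2 genes were lower in R6/2 and 0 were called. By its brightest probe Ntng1 had 1.35, 1.48, 1.38 and 1.60 on the R6/2 arrays and 2.82, 1.37, 1.11 and 1.68 on the WT arrays. WT replicate 1 stood far above the other 7 arrays, which overlapped. The difference was -0.29 ± 0.33 (limma adjusted p = 0.703), and it lay between -0.50 and 0.07 with 1 array left out at a time, so that the direction of this probe rested on WT replicate 1. The Ntng1 probe of smallest p had -0.54 ± 0.39 (adjusted p = 0.530), with a range of -0.84 to -0.14, the latter without WT replicate 1. The dimmest Ntng1 probe had -0.21 ± 0.37, with a range of -0.47 to 0.12. The 3 thalamic markers summed to 1.28 to 1.6 in R6/2, and in WT to 5.16 on replicate 1 and to 1.71 to 1.92 on the other arrays, and their part in the Ntng1 values was not tested. Ntng2, well above background on 2 R6/2 and 4 WT arrays, had a difference of -0.65 ± 0.67 (adjusted p = 0.674).

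Dcc, the receptor for attraction by netrin, had 3 tested probes that did not share a sign. The brightest of them is placed by the array files on chromosome 7, while the gene lies on chromosome 18. It consists largely of a repeat of GAA over 51 of its 60 bases. Counting either strand, it shares a stretch of 16 bases with 51 other probes of the array. It had 7.69, 7.45, 7.80 and 7.56 on the R6/2 arrays and 7.89, 7.69, 8.18 and 8.02 on the WT arrays, a difference of -0.32 ± 0.12 (limma adjusted p = 0.248). The groups overlapped through WT replicate 2, which lay below R6/2 replicate 3. The 2 probes that lie on chromosome 18 had differences of 0.20 ± 0.12 (adjusted p = 0.460) and 0.42 ± 0.21 (adjusted p = 0.363), opposite in sign to the repeat probe.

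Set against the repeat probe, their differences were 0.52 ± 0.19 and 0.74 ± 0.23 higher on the log2 scale. In limma over all pairs the adjusted p-values were 0.438 and 0.361, so that the split did not pass the test. Neo1, the Dcc relative that also binds repulsive guidance molecules, had a difference of 0.12 ± 0.08. The Unc5 receptors, which turn netrin responses to repulsion, were between -0.11 and -0.07 for all 4 tested probes of Unc5a, Unc5b and Unc5c. Unc50, a member by name only, had 0.16 ± 0.10 (adjusted p = 0.462).

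The lipid-anchored ephrin-A ligands had 0 of 5 genes called, and by the brightest probes their differences lay between -0.003 and 0.04, with a median of 0.02. Efna4 at 0.04 ± 0.12 had the smallest p on the higher side (limma adjusted p = 0.890) and changed sign without R6/2 replicate 1 or 3. A second probe of Efna3 had -0.39 ± 0.21 (adjusted p = 0.396). The transmembrane ephrin-B ligands were all 3 under an unadjusted p of 0.05, and 0 of 3 were called. Efnb2 had 2.20, 2.10, 1.95 and 2.06 on the R6/2 arrays and 1.83, 1.91, 1.68 and 1.89 on the WT arrays, with every R6/2 array above every WT array. The difference was 0.25 ± 0.08 (adjusted p = 0.185). Its dimmer probe had -0.03 ± 0.22 and overlapping groups. Efnb1 had 0.25 ± 0.10 (adjusted p = 0.248) and Efnb3, which went the other way, -0.22 ± 0.09 (adjusted p = 0.276).

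Of the EphA receptor kinases, which bind mostly ephrin-A ligands, 0 of 9 genes were called, with 4 higher, 5 lower and a median of -0.02. Epha6 had -0.18, -0.18, -0.15 and -0.29 on the R6/2 arrays and -0.41, -0.63, -1.07 and -0.59 on the WT arrays. Every R6/2 array was above every WT array, and WT replicate 3 was the lowest. The difference was 0.48 ± 0.14 (limma adjusted p = 0.132). Epha3 had 0.58 ± 0.19 (adjusted p = 0.177) with overlapping groups, and Epha10 had -0.44 ± 0.16 (adjusted p = 0.218). Epha4, a receptor that binds both ephrin classes, had -0.05 ± 0.14, and the 3 probes each of Epha5 and Epha7 lay between -0.02 and 0.17.

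The EphB receptors, partners of ephrin-B ligands at synapses, had 0 of 5 genes called and a median of -0.01. Ephb4 had 2 probes of opposite sign, -0.26 ± 0.21 and 0.24 ± 0.21, whose gap of 0.51 ± 0.23 had an unadjusted limma p of 0.0645 and an adjusted p of 0.567. The lowest p on the lower side was that of Ephb6, a family member without kinase activity, at -0.15 ± 0.10 (adjusted p = 0.508).

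All 6 Slitrk genes were higher in R6/2 by their brightest probes, with a median of 0.15, and 0 of 6 were called. Slitrk3, known for organising inhibitory synapses, had 0.45, 0.60, 0.56 and 0.70 on the R6/2 arrays and 0.30, 0.49, 0.27 and 0.46 on the WT arrays. The groups overlapped through R6/2 replicate 1. The difference was 0.20 ± 0.09 (limma adjusted p = 0.289), and Slitrk4 and Slitrk5 had 0.15 each. The highest, Slitrk6 at 0.49 ± 0.29 (adjusted p = 0.435), had its highest and its 3 lowest values among the WT arrays. The exception to the direction was a dimmer probe of Slitrk1, at -0.10 ± 0.22 (adjusted p = 0.857), which went to 0.09 without WT replicate 4.

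Across the members, 26 genes had 2 or more tested probes. For 19 of them all probes had the same sign and for 7 they did not. Each further probe was set against the brightest probe of its gene, and of the 32 member pairs 0 were called by limma, against 0% of all 11067 pairs. At an unadjusted p under 0.05 there were 5 of the 32 (15.6%), against 9.53% of all pairs. These 5 were the pairs of Robo1 and Robo3, both pairs of Dcc and 1 pair of Ntng1. The sign was shared in 23 of the 32 pairs.

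**Figure D3:**
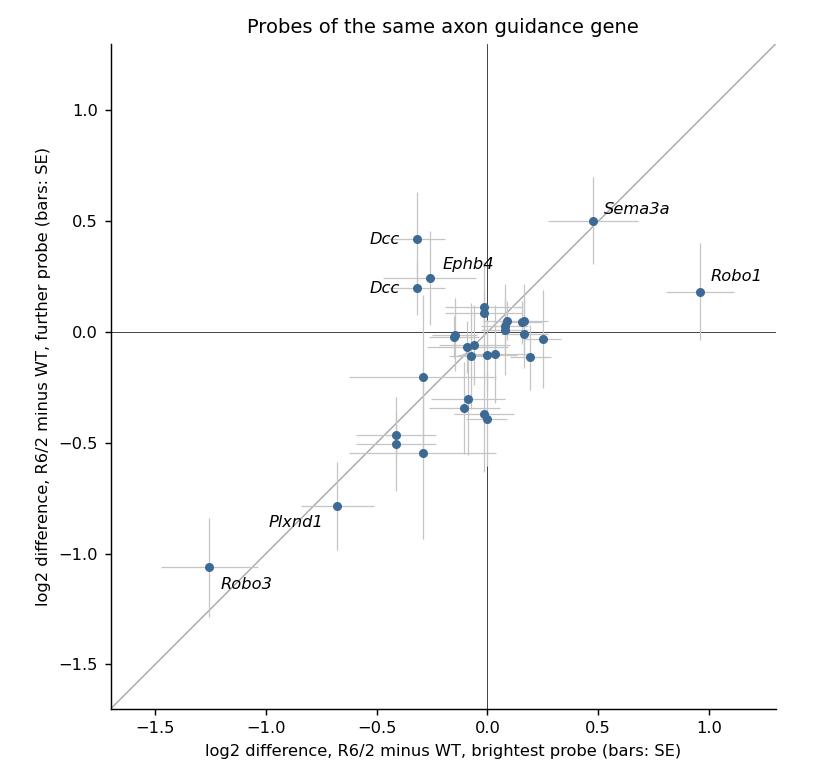
Log2 difference, R6/2 minus WT, of each further probe (vertical) against that of the brightest probe of the same gene (horizontal) for the 32 member pairs, with SE bars and the line of equality. Robo3, Plxnd1 and Sema3a lie near the line, Robo1 lies below it at 0.96 and 0.18, and both Dcc pairs and Ephb4 lie in the quadrant of opposite signs.

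Sequence content set some member probes apart. Counting either strand, a stretch of 16 bases was shared with 50 or more other probes by 5 member probes (4.39%). Of all probes on the array, 152 shared one in this way (0.273%). These 5 were the chromosome 7 probe of Dcc and the 4 T and G repeat probes printed above. Sema4c had 4.52, 4.42, 4.54 and 4.55 on the R6/2 arrays and 4.16, 4.56, 4.51 and 4.36 on the WT arrays, and Ephb3 had 3.66, 3.59, 3.71 and 3.68 on the R6/2 arrays and 3.40, 3.72, 3.72 and 3.50 on the WT arrays. WT replicate 1 was the lowest of the 8 arrays for both, as it was for the repeat probes of Sema6d and Epha5. For the Epha5 and Sema6d probes without the repeat, other arrays were the lowest. Sema4c and Ephb3 were measured by their repeat probe alone. The further Plxna2 probe is placed on chromosome 14 while the gene lies on chromosome 1, and it had -0.02 ± 0.10, beside -0.15 ± 0.11 for the probe on chromosome 1.

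Of the intracellular partners, coreceptors and further ligands of these families, 76 of 77 names had a tested probe. The name without one, Adgrl3, is another name of Lphn3, which was tested. Of these 76 genes 1 rose (1.32%, against 0.395% of all 24054 tested gene names by their brightest probe) and 2 fell (2.63%, against 1.28%). Together they were 3 of 76 (3.95%), against 1.68%. These names were chosen with earlier results of the data known, so the shares are a description and no set test was run. The median difference was -0.01, with 37 higher and 39 lower. Chn1, a Rac-inactivating protein that acts below Epha4, had 3.51, 3.48, 3.23 and 3.49 on the R6/2 arrays and 4.05, 4.15, 3.95 and 3.94 on the WT arrays, without overlap, and fell by 0.60 ± 0.09 on the log2 scale (limma adjusted p = 0.0273). Kalrn, a signalling protein of dendritic spines, had 4.16, 4.10, 3.87 and 4.00 on the R6/2 arrays and 4.44, 4.75, 4.90 and 4.62 on the WT arrays, without overlap, with a difference of -0.65 ± 0.11 (adjusted p = 0.0419). Enah, an actin regulator of growth cones that is recruited by Robo receptors, had 1.20, 1.21, 1.25 and 1.29 on the R6/2 arrays and 0.65, 0.85, 0.84 and 0.82 on the WT arrays, without overlap, with a difference of 0.44 ± 0.07 (adjusted p = 0.03). With the replicate number as a block the adjusted p-values were 0.0508 for Chn1, 0.0879 for Kalrn and 0.059 for Enah. Each kept its call in 1 of the 8 fits that left out an array, Chn1 and Enah without WT replicate 3 and Kalrn without WT replicate 1.

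In the authors' deposited table, 0 of the 114 member probes had a corrected p under 0.05. The lowest there was that of Robo1 at 0.0944, with a fold of 1.96 upward, and Robo3 followed at 0.123 with a fold of 2.37 downward in the authors' deposited table. By the methods' t-test on the scaled signals used here, the adjusted p was 0.067 for Robo1 and 0.0838 for Robo3, and in limma with no filter on dim probes it was 0.0813 for Robo1 and 0.102 for Robo3.

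**Figure D4:**
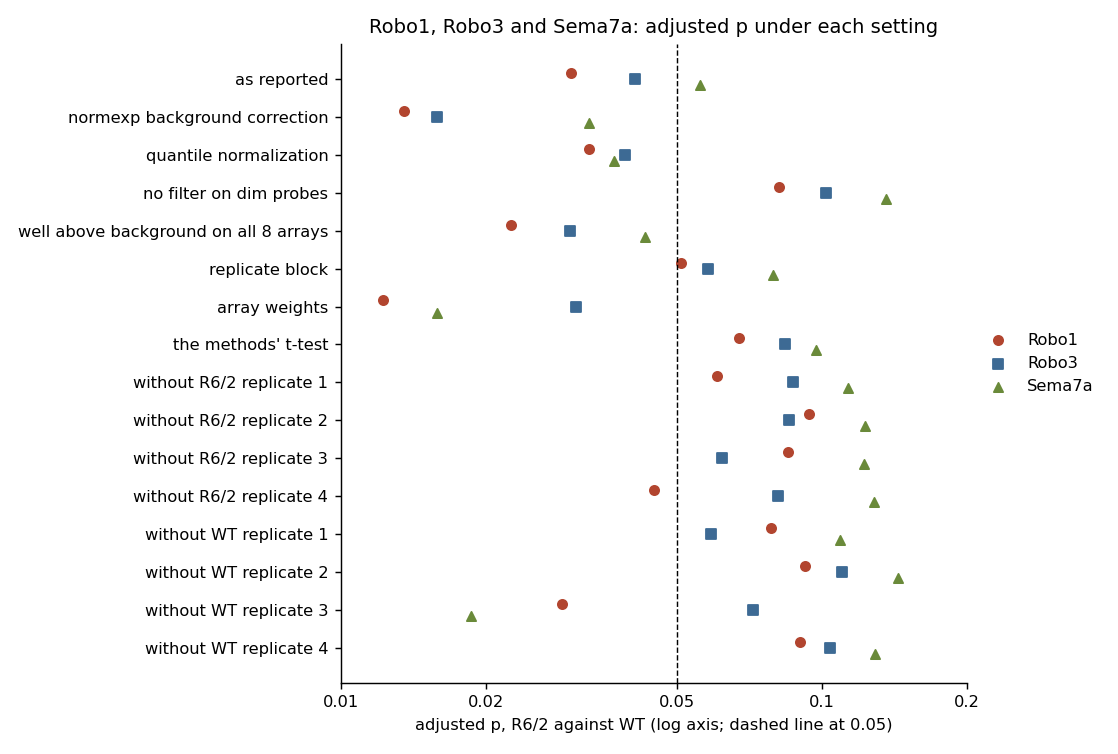
Adjusted p (horizontal, log axis) of the brightest probes of Robo1, Robo3 and Sema7a under each setting, with the dashed line at 0.05. Robo1 lies between 0.0122 and 0.094, and Robo3 passes the line in none of the fits that leave out an array.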

How the data were processed

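The members, families and gene lists were chosen with earlier results of these data known. Striatal RNA was labelled with Cy3, per the labels' protocols. Per the file headers, the authors' intensity values came from Agilent Feature Extraction 10.7.3.1 (design build mm9). Per the file headers, the log2 values the authors deposited are normalized; they equalled the log2 processed signal minus a constant per array (column medians -3.48 to -3.27; scale and direction as used here, genes not centred). The deposited p-values are from an unpaired t-test with Benjamini-Hochberg correction, per the file headers, and the authors' fold values are unsigned ratios.

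Here log2 processed signals were scaled to each array's 75th percentile. Flagged non-uniform and population-outlier spots were left out, and spots of a probe averaged. Tests used lmFit and eBayes (limma 3.58.1, R 4.3.3), with Benjamini-Hochberg adjustment over 35121 probes, and were tested on simulated data. Genes were represented by their brightest tested probe. Probe pairs were fitted as per-array differences. Named were called genes and their other probes, the smallest p per family and direction, and called partner genes; other members were described after their values were seen. Gene names are the scanner files'; gene chromosomes come from the GRCm38.p6 gene table, and positions are mm9.

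Replicate number equalled slide column on 8 of 8 arrays, and same-numbered arrays deviated together (r = 0.222, 0.183, 0.356 and 0.133). Between R6/2 and WT arrays of different number, r was -0.19 to 0.047. A pairing of the samples and an effect of slide column cannot be told apart here. The reported fit had no block and leaves this shared deviation out of account. With the replicate number as a block, run as an alternative, 0 of the 109 member probes were called. The number of arrays limits the precision.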

Additional observations from a re-analysis of the deposited data

Results flagged for a closer look

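In 5 results, the sets of 4 arrays behind a named probe held 1 array far from the others, measured as its gap to the nearest array over the whole range. Chance alone flags about 1 in 20 such groups, and 58 groups were checked. All of these arrays were WT. For the brightest probe of Plxnd1, WT replicate 2 was high at 3.80, beside 3.48 to 3.51 on the other WT arrays (gap over range 0.889), and without it the difference was -0.60 in place of -0.68. For the brightest probe of Robo1, WT replicate 3 was high at 0.70, beside 0.23 to 0.31 (0.830), and without it the difference was 1.06. For Robo3, WT replicate 1 was low on both probes, at 0.66 beside 1.13 to 1.19 on the brightest (0.888) and at -2.96 beside -2.54 to -2.48 on the further one (0.880), and the differences without it were -1.38 and -1.18. For Unc50, WT replicate 3 was low at 2.62, beside 2.92 to 2.98 (0.839), and the difference went to 0.07 without it, against 0.16 with all arrays.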

How the results depend on the processing

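The count of called probes over the whole array, 529, was 981 after normexp correction and 982 with array weights. It was 110 with no filter on dim probes, 264 by the methods' t-test and 283 with the replicate block. Without WT replicate 3 it was 505, and without any other array it was 100 to 180. The array weight was lowest for WT replicate 3, at 0.386, beside 0.749 to 1.715 for the other arrays. The 1 member probe called higher, Robo1, was lost (0 called) with no filter, with the replicate block and by the methods' t-test, and the leave-one-out counts were 0 to 1. The count called lower, 1, was 3 after normexp, 2 after quantile normalization, 3 among probes well above background on all 8 arrays, 4 with array weights, 0 with no filter, 0 with the replicate block, 0 by the methods' t-test and 0 to 2 with 1 array left out. The block changed no call of another named member. Over all pairs, 0 were called, 1 after quantile normalization and 0 to 2 with 1 array left out. The cause of these changes was not tested. The leave-one-out fits also had fewer samples.

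Family medians moved by more than the spread between arrays as follows. Over all tested probes, Sema4 to Sema7 gave -0.11 (from -0.01), Efnb 0.11 (from 0.25) and Dcc with Neo1 0.16 (from -0.10). After quantile normalization, Dcc with Neo1 gave -0.025. Without the repeat probes and those on another chromosome, an alternative chosen after seeing the data, Dcc with Neo1 gave 0.16, Sema4 to Sema7 -0.13 and Ephb -0.081. With 1 array left out, the medians ranged over -0.109 to 0.033 for Sema3, -0.139 to 0.034 for Sema4 to Sema7, -0.157 to -0.025 for Plxn, 0.18 to 0.26 for Efnb and -0.052 to 0.002 for all members. In 3 of the 29 probes named by the rule above, the difference turned in sign with 1 array left out. The further Robo1 probe ranged over -0.004 to 0.373, Efna4 over -0.03 to 0.118 and the dimmer Slitrk1 probe over -0.271 to 0.091. Other probes described here also turned, among them the brightest and dimmest Ntng1 probes, Slit2 and the dimmer Efnb2 probe.

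A fit with slide or scan as a block was not run, since all 8 arrays shared 1 slide and 1 scan time. Signal near background limits Ntn4, Ntng2 and the dimmer probes of Robo1, Dcc and Ntng1, where normexp correction lessened the differences. It also lessened those of the further Robo3 probe, the dimmer Sema3a probe (0.50 to 0.25) and Nrp1 (-0.41 to -0.24), all well above background on all 8 arrays.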
